A study of Mus musculus with 13 samples.

Results

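The lysosomal hydrolases and cathepsins described here are 33 genes, taken by symbol from the deposited count table: 9 proteases, 12 enzymes that strip sugars and sulfate groups from glycans, 5 genes for a lipase, phosphatases and activator proteins, 5 membrane proteins and 2 transcription factors. All 33 were among the 24421 symbols of the table and all 33 were abundant enough to be tested, out of 13915 tested genes. They were measured by bulk RNA sequencing of liver endothelial cells from wild-type mice that were germ-free (GF, 6 libraries), raised without live microbes, or conventionally raised (CONV-R, 7 libraries), with a normal microbiota. The labels give no age, sex, cage, batch or cell isolation method for either group, and do not say whether a library is 1 animal, so the p-values reflect only how much these libraries vary. Library totals were 23407168 to 35478115 counts in GF and 7590320 to 32869515 in CONV-R.

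Lysosomes are acidic compartments in which proteins, glycans, lipids and nucleic acids taken up from outside or delivered by autophagy are broken down. Liver sinusoidal endothelial cells are known for very active scavenging: they take up denatured collagens, hyaluronan and other waste macromolecules from blood and degrade them in lysosomes. Kupffer cells, the macrophages of the sinusoids, are also rich in lysosomes. Many lysosomal genes carry a short palindrome in their promoters, the CLEAR element, which is bound by TFEB, TFE3 and the related factors MITF and TFEC.

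The core of that element, CACGTG, was searched in the RefSeq promoter windows of GRCm38.p6, each running from 250 bases before to 50 bases after an annotated start. The core reads the same on both strands. Windows were found for 30 of the 33 genes, and Ctsb, Ctsh and Galns had none in the table. The core was present in 11 of the 39 windows of these genes (28.2%), against 7.15% of all 32851 windows. Genes with a match were Ctsa, Ctsd, Ctsl, Lgmn, Gaa, Glb1, Gla, Naglu, Lamp1, Cln3 and Mcoln1. The longer CLEAR palindrome, with GT before and AC after the core, occurred in 1 of the 39 windows, that of a second start of Cln3, and in 0.326% of all windows. A match is a string of letters and not a measured binding site. Sequences are shown for the 6 genes that differed between the groups below and for Lamp1, which held the most cores. For Man2b1 (chr8:85083169-85083268, plus strand), Lipa (chr19:34527475-34527574, minus strand), Ids (chrX:70365086-70365185, minus strand), Ctsc (chr7:88277985-88278084, plus strand) and Ctsz (chr2:174439040-174439139, minus strand) these are the 100 bases before the start, none of which hold the core. For Cln3 (chr7:126583340-126583369, minus strand) a stretch of 30 bases around the longer form before the second start is shown, with that form in capitals. All 30 bases are annotated as exon in GENCODE M21, against 0 bases in each of the other stretches shown. For Lamp1 (chr8:13159081-13159155, plus strand) the cores are in capitals.
Man2b1: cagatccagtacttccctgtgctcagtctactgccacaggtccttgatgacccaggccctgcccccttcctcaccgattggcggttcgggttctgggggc
Lipa: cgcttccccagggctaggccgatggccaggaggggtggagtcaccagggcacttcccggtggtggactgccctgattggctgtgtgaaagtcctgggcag
Ids: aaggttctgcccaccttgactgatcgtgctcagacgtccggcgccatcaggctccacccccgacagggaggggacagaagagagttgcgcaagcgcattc
Ctsc: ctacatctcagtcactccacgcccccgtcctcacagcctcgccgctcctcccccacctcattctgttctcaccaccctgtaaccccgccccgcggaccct
Ctsz: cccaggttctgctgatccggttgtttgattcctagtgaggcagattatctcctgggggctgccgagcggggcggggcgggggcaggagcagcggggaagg
Cln3: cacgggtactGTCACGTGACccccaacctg
Lamp1: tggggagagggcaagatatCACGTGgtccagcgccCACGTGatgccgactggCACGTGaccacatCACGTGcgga

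The libraries were checked for endothelial and other cell markers, since lysosomal genes are not particular to 1 cell type. All 16 endothelial markers, such as Stab2, Kdr and Pecam1, were detected in every library, and their sum was 41734 to 44618 CPM of the library total in GF and 25394 to 43761 in CONV-R, lowest in CONV-R 1. By the test described below, 8 of the 16 were higher in GF and 0 lower, and the median log2 fold change of the 16 was 0.36. The 16 Kupffer cell markers were also detected in every library. Their sum was 3203 to 5013 CPM in GF and 3461 to 9459 in CONV-R, where libraries 1, 5 and 6 held 8357, 9459 and 9454. Of these 16 markers 1 passed the test below, the factor gene Spic (lower in GF), and 0 were at zero in any library. The log2 fold change was below 0 for all 16, with a median of -0.62. The sum of 20 hepatocyte markers was 914 to 1448 CPM in GF and 1574 to 10141 in CONV-R, so that the groups did not overlap, and 17 of 19 tested were lower in GF. Neutrophil and monocyte markers summed to 101.5 to 228 CPM in GF and 243 to 2475 in CONV-R, and 11 of 13 tested were lower in GF. B and plasma cell markers summed to 28.9 to 51.3 CPM in GF and 74.0 to 1902 in CONV-R, and 9 of 10 were lower. Of 10 cholangiocyte markers 6 were higher and 1 lower in GF, with sums of 162 to 413 CPM in GF and 61.0 to 299 in CONV-R. In bulk RNA, fewer cells of a type and less RNA per cell cannot be told apart.

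Levels of the 33 genes spanned a wide range. In CPM (a gene's count scaled to a fixed library size, corrected by the trimmed mean of M-values) per kilobase of exon, the prosaposin gene Psap, whose product is cut into activators of sphingolipid hydrolases, stood first at 848 ± 64.8 in GF and 795 ± 112 in CONV-R (mean ± SD, n = 6 and 7, as for all such pairs). The aspartic protease gene Ctsd followed, at 461 ± 38.0 in GF and 531 ± 67.3 in CONV-R. Next by their GF level came Lamp1, Lgmn, Ctsb and Ctsl, at 241 to 387 in GF and 214 to 407 in CONV-R, where Lgmn and Ctsb stood above Lamp1. Lamp1 and Lgmn did not differ beyond their SD in either group, nor did Lgmn, Ctsb and Lamp1 in CONV-R. At the low end were Galns, Tfeb, Cd63 and Arsb, at 2.61 to 3.51 in GF and 3.03 to 3.24 in CONV-R. A near copy, Cd63-ps, is 98.5% identical to the Cd63 transcript over 812 bases, so the count of Cd63 is uncertain. Exons of Ctsd share 808 of 2351 bases with the same-strand gene Gm49369 in GENCODE M21, which makes its level uncertain as well.

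**Figure D1:**
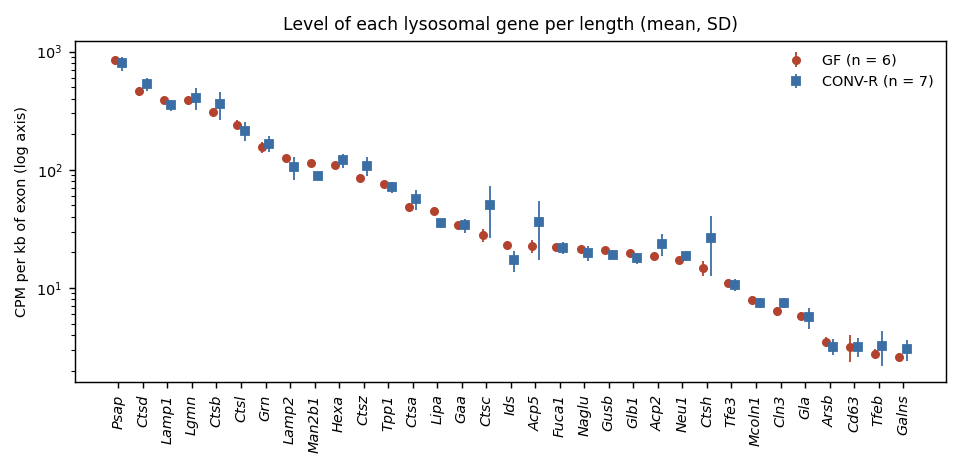
Level of each of the 33 genes per kilobase of exon on a log axis, as the mean with SD for GF (circles, n = 6) and CONV-R (squares, n = 7). Genes run from Psap, at 848 in GF, to Galns, at 2.61, and the SD of Ctsc, Ctsh and Acp5 is much wider in CONV-R than in GF.

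The summed expression of the 33 genes was close in the groups, at 13983 ± 694 CPM in GF and 13918 ± 1556 CPM in CONV-R. As a share of the unscaled library total it was 13478 ± 568 CPM in GF and 14338 ± 1536 CPM in CONV-R, so which group was higher depended on the scaling. The median log2 fold change (GF over CONV-R) was 0.01 over the 33 genes and -0.01 over all tested genes. Individual genes did differ: 3 were higher in GF (Man2b1, Lipa and Ids) and 3 lower (Ctsz, Ctsc and Cln3), by edgeR's quasi-likelihood test with Benjamini-Hochberg adjusted p under 0.05 over all tested genes. Of all tested genes 11.4% were higher and 12.7% lower, together 24.1%, beside 18.2% of the 33 genes. Scaling by library totals alone, which moved the median of all tested genes to -0.11, gave 3 higher and 7 lower. That scaling called 971 higher and 2773 lower of all 13915 tested genes. Leaving out 1 library at a time kept the 3 higher calls and gave 0 to 6 lower, with 0 without CONV-R 6, GF 9 or GF 10 and 6 without CONV-R 4. Of all tested genes 1545 of 13973 were lower without CONV-R 6, 1208 of 14158 without GF 9 and 1425 of 13988 without GF 10. Without CONV-R 4 it was 1915 of 13840. The effects were small, with log2 fold changes from -0.84 to 0.43 over the 33 genes. Spread within a group was larger in CONV-R than in GF for 32 of the 33 genes, Cd63 being the exception, and for 90.2% of all tested genes. The median coefficient of variation over the 33 genes was 6.65% in GF and 15.6% in CONV-R.

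**Figure D2:**
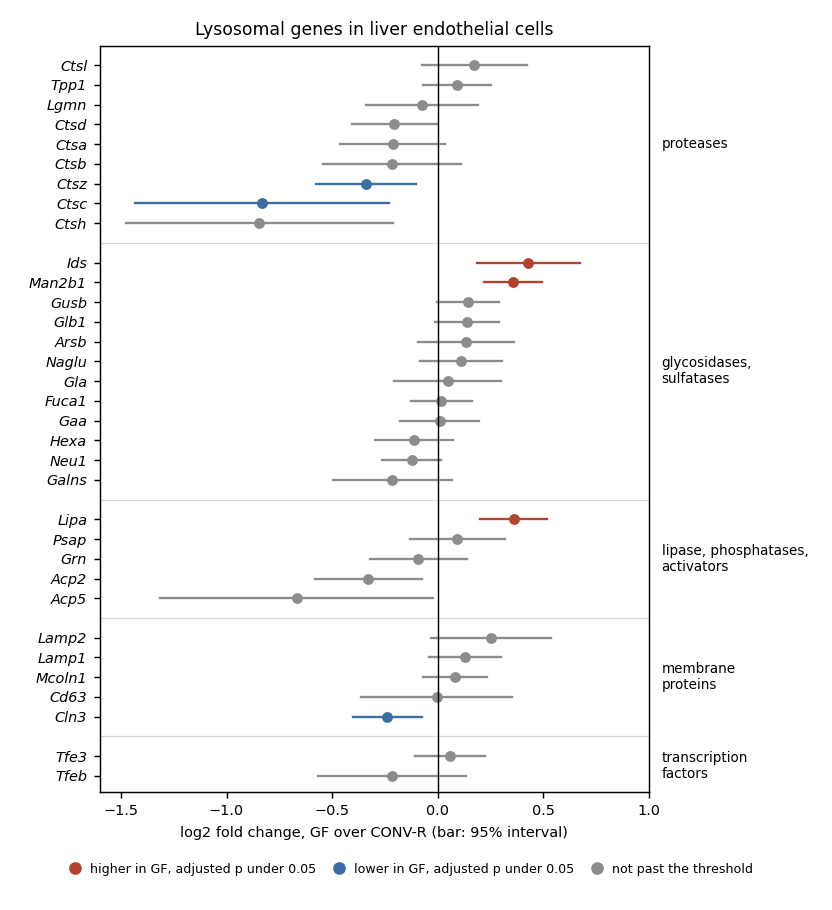
Log2 fold change (GF over CONV-R) of each gene with its 95% interval, grouped by role and coloured by whether the adjusted p was under 0.05. Ids, Man2b1 and Lipa lie right of 0 and Ctsz, Ctsc and Cln3 left of it. The wide intervals of Ctsh and Acp5 also lie left of 0, but their adjusted p was above 0.05.

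Among the glycan-degrading enzymes 2 of 12 rose, 0 fell and 10 did not pass, and the median log2 fold change was 0.08. Over all tested genes the shares were 11.4% higher and 12.7% lower. Man2b1 (chr8:85083270-85098282, plus strand; gene positions are from GENCODE M21 on GRCm38, and the genes located here are protein-coding) encodes the lysosomal alpha-mannosidase that degrades N-glycans. It had 829, 921 and 962 CPM (lowest, median and highest) in GF libraries, against 655, 714 and 783 CPM in CONV-R libraries. The groups did not overlap. The difference was 1.28-fold (log2 fold change 0.36 ± 0.06 SE, adjusted p = 0.00247, edgeR). Ids (chrX:70343069-70365084, minus strand), the iduronate sulfatase that starts the breakdown of heparan and dermatan sulfate, had 109.7, 119.1 and 124 CPM in GF libraries, against 61.8, 85.04 and 108 CPM in CONV-R libraries. Here too the groups did not overlap, but CONV-R 3 at 108 CPM came close to GF 8 at 109.7. Ids was 1.35-fold higher in GF (log2 fold change 0.43 ± 0.11, adjusted p = 0.0164, edgeR). Such a separation, GF above CONV-R, was found for 3 of the 33 genes (these and Lipa) and for 5.94% of all tested genes.

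The other 10 glycan-degrading enzymes had log2 fold changes from -0.21 (Galns, a sulfatase of keratan sulfate breakdown) to 0.14 (the beta-glucuronidase gene Gusb). Hexa, the alpha subunit of beta-hexosaminidase, was the most abundant of them per length and had 212, 220 and 235 CPM in GF libraries, against 193, 241 and 293 CPM in CONV-R libraries, which overlapped. The acid alpha-glucosidase gene Gaa, which degrades glycogen in lysosomes, stood at 163 ± 10.4 CPM in GF and 162 ± 21.9 CPM in CONV-R, with a 95% interval of the log2 fold change from -0.18 to 0.20. The interval was -0.13 to 0.16 for the fucosidase gene Fuca1 and -0.26 to 0.01 for the sialidase gene Neu1. Glb1, the beta-galactosidase, and Naglu, which removes N-acetylglucosamine from heparan sulfate, had intervals of -0.01 to 0.29 and -0.08 to 0.31. For Gla, an alpha-galactosidase, and Arsb, a sulfatase of dermatan sulfate breakdown, they were -0.21 to 0.30 and -0.09 to 0.36.

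Lipa (chr19:34492318-34527474, minus strand), the lysosomal acid lipase that hydrolyses cholesteryl esters and triglycerides, was the third gene higher in GF. It had 273, 307 and 342 CPM in GF libraries, against 209, 237 and 269 CPM in CONV-R libraries, with no overlap. The difference was 1.28-fold (log2 fold change 0.36 ± 0.07, adjusted p = 0.00469, edgeR). The differences of Man2b1, Ids and Lipa were of about the size of the endothelial markers' median of 0.36. Pecam1 was at 0.41, Stab2 at 0.39 and Tek at 0.37, but the 16 markers ran from 0.07 (Kdr) to 0.93 (Lyve1). Of the 16 markers 8 did not pass. In CONV-R 1, with the lowest endothelial marker sum, Man2b1 was at 757 CPM and Lipa at 247 CPM. In CONV-R 2 to 4, with higher sums, they were at 655 to 699 and 209 to 237 CPM. Ids was at 61.8 CPM in CONV-R 1 and 96.0 to 108 CPM in CONV-R 2 to 4. The part of endothelial RNA content in these calls was not tested. Psap (log2 fold change 0.09 ± 0.10) and the progranulin gene Grn, whose product is cut into granulins in lysosomes (-0.09 ± 0.11), did not pass. The phosphatase genes stood lower without passing. Acp2, a lysosomal acid phosphatase, had 89.4, 97.2 and 104 CPM in GF libraries, against 94.8, 120 and 158 CPM in CONV-R libraries (log2 fold change -0.33 ± 0.12, adjusted p = 0.0565, edgeR). Acp5, the tartrate-resistant acid phosphatase of macrophages and osteoclasts, had 38.8, 45.5 and 55.8 CPM in GF libraries, against 31.9, 64.7 and 130 CPM in CONV-R libraries (log2 fold change -0.67 ± 0.30, adjusted p = 0.118, edgeR). For Acp2 only CONV-R 2 and 4 lay within the GF range and the other 5 above it. For Acp5 4 of 7 CONV-R libraries lay above the GF range and 2 below it.

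**Figure D3:**
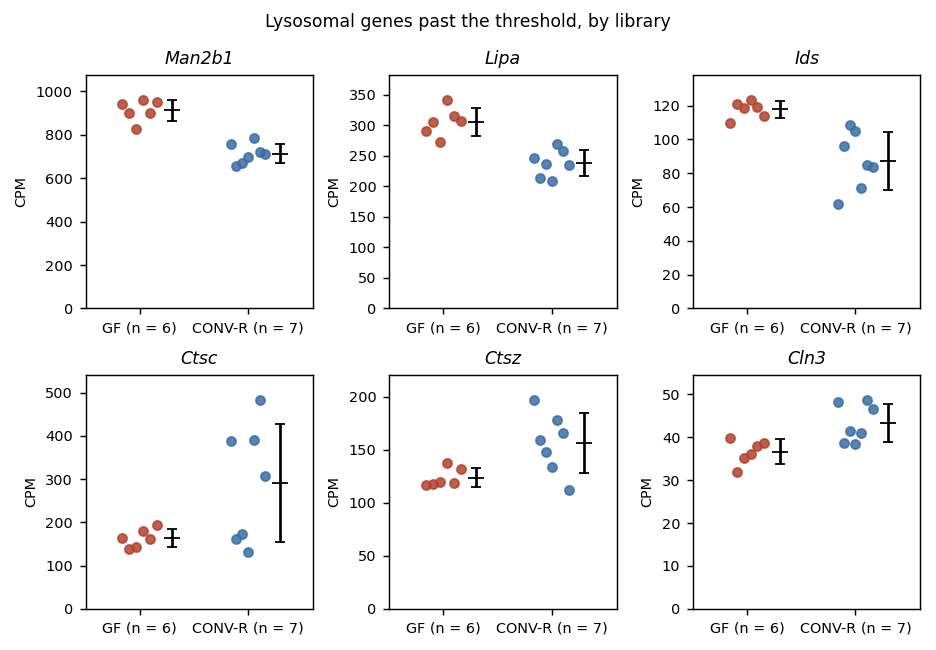
CPM of each library for the 6 genes past the threshold, with the mean and SD beside the points, GF (n = 6) on the left and CONV-R (n = 7) on the right of each panel. GF and CONV-R points do not overlap for Man2b1, Lipa and Ids, and overlap for Ctsc, Ctsz and Cln3.

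Of the 9 proteases 2 fell in GF, 0 rose and 7 did not pass, with a median log2 fold change of -0.21. The shares over all tested genes were 12.7% lower and 11.4% higher. Ctsz (chr2:174427493-174439039, minus strand), a cysteine carboxypeptidase, had 117, 118.8 and 137 CPM in GF libraries, against 112, 160 and 197 CPM in CONV-R libraries. The groups overlapped: CONV-R 7 was the lowest of all libraries at 112 CPM, and CONV-R 4, at 134 CPM, lay within the GF range. Ctsz was 1.27-fold lower in GF (log2 fold change -0.34 ± 0.11, adjusted p = 0.0393, edgeR). Ctsc (chr7:88278085-88310888, plus strand), a dipeptidyl peptidase known for activating the serine proteases of leukocyte granules, had 138, 163 and 193 CPM in GF libraries, against 131, 306 and 483 CPM in CONV-R libraries. CONV-R 2, 3 and 4 stood at 162, 174 and 131 CPM, within or below the GF range, and the other 4 CONV-R libraries stood above it. The fit gave 1.78-fold lower in GF (log2 fold change -0.83 ± 0.28, adjusted p = 0.0447, edgeR). That call was lost without CONV-R 1, 5, 6 or 7 or any of the 6 GF libraries in turn, with adjusted p up to 0.0887. The Ctsz call was lost in 7 of 13 such fits, without CONV-R 5 or 6 or GF 8, 9, 10, 12 or 13. Ctsh, an aminopeptidase, had a difference of the same size that did not pass (-0.84 ± 0.29, adjusted p = 0.0516, edgeR), with 52.3, 67.9 and 80.1 CPM in GF libraries and 52.6, 108 and 232 CPM in CONV-R libraries. CONV-R 1 held the highest value of Ctsh.

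The most abundant proteases did not pass. Ctsd had 985, 1053 and 1226 CPM in GF libraries, against 995, 1232 and 1499 CPM in CONV-R libraries (log2 fold change -0.21 ± 0.09). Ctsb, a cysteine endopeptidase, had 1733, 1846 and 1995 CPM in GF libraries, against 1540, 1912 and 3008 CPM in CONV-R libraries, with CONV-R 5 and 6 at 2924 and 3008. For Ctsl, another cysteine endopeptidase, the log2 fold change was 0.17 ± 0.12. The legumain gene Lgmn, an asparagine-specific endopeptidase, was at -0.07 ± 0.12. Tpp1, a tripeptidyl peptidase, was at 0.09 ± 0.07, and Ctsa, the protective protein of the beta-galactosidase and sialidase complex, at -0.21 ± 0.12. Exons of Ctsa, Ctsb and Ctsl overlap genes on the other strand, as do those of Hexa, Arsb, Acp2, Acp5, Lamp1 and others of the 33, and the strand setting of the counting is not given.

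Among the membrane proteins 1 of 5 fell, 0 rose and 4 did not pass, beside 12.7% lower and 11.4% higher of all tested genes. Cln3 (chr7:126571207-126585817, minus strand), whose loss in humans causes juvenile neuronal ceroid lipofuscinosis, had 31.8, 37.0 and 39.9 CPM in GF libraries, against 38.5, 41.4 and 48.7 CPM in CONV-R libraries. GF 8 and GF 13 lay within the CONV-R range and the other 4 below it. Cln3 was 1.18-fold lower in GF (log2 fold change -0.24 ± 0.08, adjusted p = 0.0354, edgeR). It did not pass without CONV-R 6 or 7 or GF 9, 10 or 11. Exons of Cln3 share 442 bases with those of Apobr on the other strand, an apolipoprotein B receptor gene that was itself lower in GF (log2 fold change -0.89 ± 0.26). Separation with GF below CONV-R was found for 0 of the 33 genes, against 4.32% of all tested genes. Lamp1 and Lamp2, the main glycoproteins of the lysosomal membrane, had log2 fold changes of 0.13 ± 0.08 and 0.25 ± 0.13. Lamp2 was lowest in CONV-R 1, at 697 CPM, and stood at 1154 to 1294 CPM in GF and up to 1301 CPM in CONV-R. The calcium channel gene Mcoln1 was at 0.08 ± 0.07 and the tetraspanin gene Cd63 at -0.01 ± 0.17.

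Neither of the transcription factors passed. Tfeb had 14.5, 15.4 and 18.3 CPM in GF libraries, against 14.7, 16.3 and 31.8 CPM in CONV-R libraries, and its high value came from CONV-R 1. The 95% interval of its log2 fold change ran from -0.57 to 0.13. Tfe3 had 97.3, 103 and 107.1 CPM in GF libraries, against 77.1, 100.6 and 112 CPM in CONV-R libraries, with an interval from -0.11 to 0.22. These are transcript levels; both proteins are known to be controlled mainly by phosphorylation and entry into the nucleus, which was not measured.

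Kupffer cell markers varied among the CONV-R libraries, and their values are given beside the called genes. Ctsc was at 387, 391 and 483 CPM in CONV-R 1, 5 and 6, the libraries with the highest Kupffer marker sums, and at 131 to 306 CPM in the other CONV-R libraries. Acp5 was at 130, 104 and 100.6 CPM in CONV-R 1, 5 and 6, and at 31.9 to 64.7 CPM in the others. With the Kupffer marker sum as a covariate the log2 fold change was -0.09 for Ctsc (adjusted p = 0.571, edgeR), -0.20 for Ctsz (adjusted p = 0.261), -0.14 for Cln3 (adjusted p = 0.239) and -0.10 for Ctsh (adjusted p = 0.689). With CONV-R 1, 5 and 6 left out they were -0.25, -0.17, -0.18 and -0.19, and 0 of the 33 genes were lower. These libraries were chosen after seeing the data. Among CONV-R libraries Ctsc, Ctsh and Ctsz are highest in them, so the choice itself shrinks the differences of these genes. Of all tested genes 9.54% were called with the covariate (607 of 13915 lower) and 16.6% without those libraries (1220 of 14191 lower). Man2b1 and Lipa were at 0.42 (adjusted p = 0.00157, edgeR) and 0.46 (adjusted p = 0.00126) with the covariate. Without those libraries they were at 0.41 and 0.44. Among CONV-R libraries both genes are highest in those left out, so the choice itself widens these differences. Ids was at 0.26 with the covariate and did not pass (adjusted p = 0.0804), and at 0.25 without those libraries, where it did (adjusted p = 0.0337). Ids was lowest in CONV-R 1 and 5, at 61.8 and 71.5 CPM. The part of Kupffer cell RNA in these differences was not tested.

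**Figure D4:**
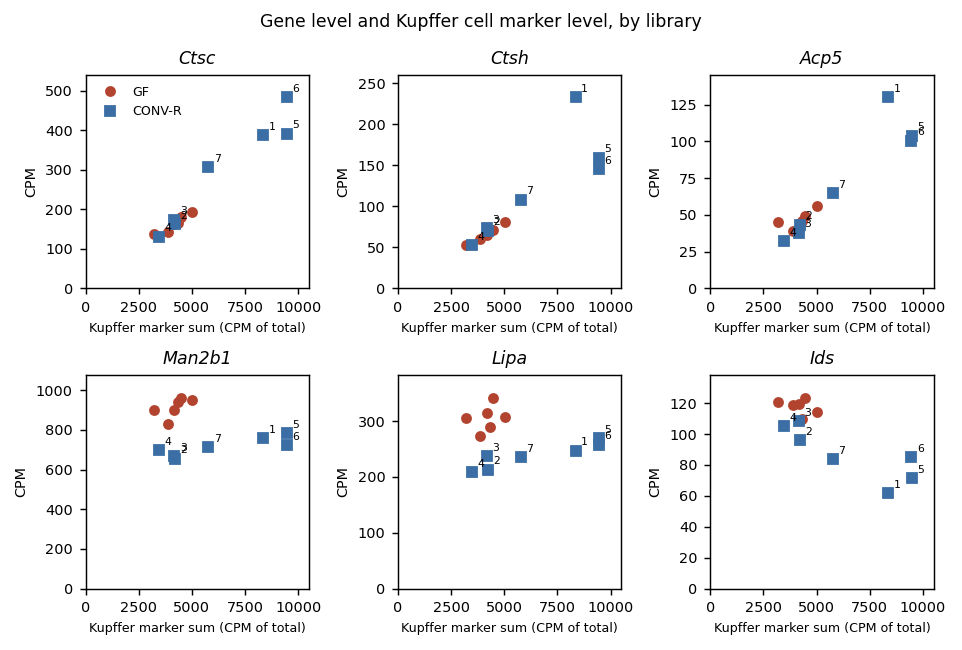
CPM of 6 genes against the sum of 16 Kupffer cell markers (CPM of the library total), 1 point per library, with CONV-R libraries numbered. Ctsc, Ctsh and Acp5 are highest in CONV-R 1, 5 and 6, whose marker sums are 8357 to 9459, while all GF points of Man2b1 and Lipa lie above the CONV-R points.

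The hepatocyte markers also moved with the group, without overlap. With their sum as a covariate 3.66% of all tested genes were called, and of the 33 genes Man2b1 (0.44, adjusted p = 0.0244, edgeR) and Lipa (0.46, adjusted p = 0.0434). Ids was then at 0.04 (adjusted p = 0.911, edgeR) and Ctsc at 0.03 (adjusted p = 0.980). Because this sum splits the libraries as the group does, the fit cannot tell hepatocyte marker level and group apart. Library names carry a code number that is 6 in all GF libraries, 10 in CONV-R 1 to 4 and 9 in CONV-R 5 to 7, so that code and group cannot be told apart. Against the CONV-R libraries with number 10 alone, Man2b1 (0.40), Lipa (0.43) and Ctsz (-0.37) passed, with 13.9% of all tested genes called. Against those with number 9 alone, 5 of the 33 genes were higher and 8 lower, with 34.0% of all genes called. Ctsc was at -0.39 and did not pass against number 10, and at -1.28 against number 9 (adjusted p = 0.000102).

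Other genes of the lysosome and of autophagy made 7 lists by role, with 132 genes. Of 129 tested, 18 rose, 5 fell and 106 did not pass, and the median log2 fold change was 0.04, beside 11.4% higher, 12.7% lower and a median of -0.01 over all tested genes. With scaling by library totals 10 were higher and 14 lower, beside 971 higher and 2773 lower of all tested genes. Among 32 other hydrolases 4 rose and 0 fell. The hyaluronidase genes Hyal1 and Hyal2 had log2 fold changes of 0.79 ± 0.11 (33.1 ± 3.74 CPM in GF and 19.2 ± 3.26 CPM in CONV-R) and 0.77 ± 0.12 (499 ± 52.5 CPM in GF and 293 ± 56.7 CPM in CONV-R). The cathepsin gene Ctso was at 0.28 ± 0.06. GF and CONV-R did not overlap in any of these 3 genes. The fourth was Ctsk, a collagen-degrading cathepsin best known from osteoclasts, at 0.61 ± 0.16, with overlapping groups. Of 17 tested subunits of the proton pump that acidifies lysosomes 1 fell, Atp6v0a1 (-0.23 ± 0.07), and 0 rose. It did not pass when any 1 of 10 libraries was dropped, with adjusted p up to 0.0798.

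Of 19 membrane and transport genes 4 rose and 1 fell, beside 11.4% higher and 12.7% lower of all tested genes. Scarb2, the receptor that carries glucocerebrosidase to lysosomes, had 597 ± 90.5 CPM in GF and 398 ± 61.2 CPM in CONV-R (0.58 ± 0.12), the cystine exporter gene Ctns was at 0.27 ± 0.07 and Ostm1, a partner of a chloride transporter, at 0.32 ± 0.09. The channel gene Tpcn1 was the fourth, at 0.20 ± 0.06, and its relative Tpcn2 fell (-0.35 ± 0.10). Of 15 sorting genes 1 rose, the sortilin gene Sort1 (0.58 ± 0.13), and 1 fell, the adaptor gene Gga3 (-0.33 ± 0.10). Among 20 genes around TFEB 1 rose and 2 fell. The falls were those of TFEB's own relatives: Mitf had 5.92 to 7.75 CPM in GF and 8.19 to 14.5 CPM in CONV-R (-0.58 ± 0.15), and Tfec 50.9 to 57.97 CPM in GF and 60.5 to 90.04 CPM in CONV-R (-0.48 ± 0.08), neither with overlap. Rptor, of the mTOR complex that holds TFEB in the cytoplasm, was at 0.21 ± 0.06. Ostm1 lost its call without GF 9, Tpcn2 without GF 9 or 11, and Gga3, Rptor and Tpcn1 without any of 4, 8 and 8 libraries in turn.

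Of 20 tested autophagy genes 6 rose and 0 fell, beside the 11.4% higher and 12.7% lower of all tested genes. Wipi1, which binds phosphoinositides on forming autophagosomes, had 69.1 ± 4.80 CPM in GF and 43.8 ± 7.19 CPM in CONV-R (0.66 ± 0.10). The initiating kinase gene Ulk1 was at 0.34 ± 0.09 and Gabarapl1, of the family conjugated to autophagosome membranes, at 0.49 ± 0.13. Map1lc3b (0.25 ± 0.07), Uvrag (0.24 ± 0.07) and Atg9a (0.21 ± 0.06) were the others, and did not pass without any of 6, 5 and 9 libraries in turn. Of 6 tested cystatin and serpin genes 2 rose: Serpinb6a (0.28 ± 0.09) and Serpinb9 (0.26 ± 0.07), which is best known as an inhibitor of granzyme B and not of cathepsins. Serpinb6a, with overlapping groups, did not pass when any 1 of 10 libraries was dropped, Serpinb9 any 1 of 4, and Gabarapl1 without GF 9. The hepatocyte and Kupffer cell markers differ between the same libraries. With the Kupffer marker sum as a covariate 8 of these other genes were higher and 3 lower. Of all 13915 tested genes 721 were then higher and 607 lower. With the hepatocyte sum 1 was higher, Hyal1 (0.70), and 2 were lower, Tfec and Atp6v0a1, beside 270 higher and 239 lower of all tested genes. All 26 alternative settings kept the calls of Hyal1 and Tfec.

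**Figure D5:**
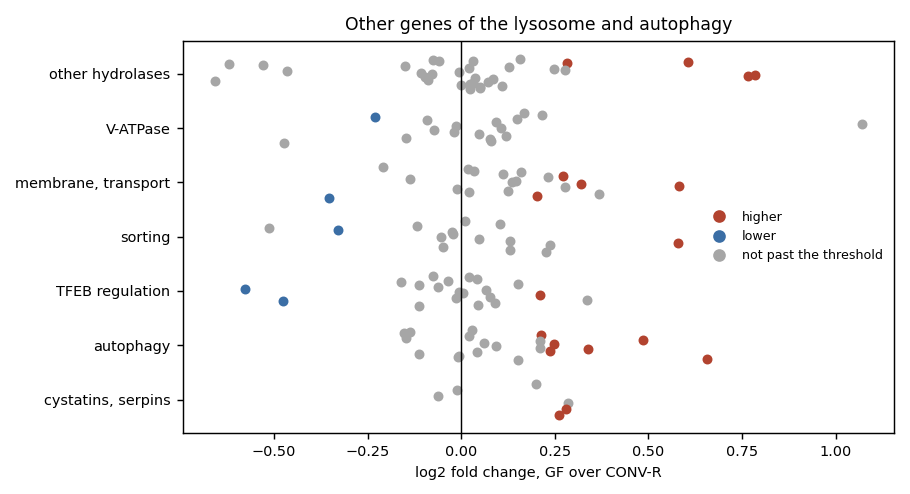
Log2 fold change (GF over CONV-R) of 129 other lysosomal and autophagy genes, 1 point per gene, in 7 lists by role and coloured by call. The 18 genes called higher are spread over 6 of the lists, with Hyal1, Hyal2 and Wipi1 farthest right among them, and the 5 called lower lie left of 0.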

How the data were processed

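Poly(A) RNA of 13 libraries of liver endothelial cells was sequenced with a stranded kit on an Illumina instrument, per the labels' protocols. The authors deposited raw counts per gene symbol. FastQC 0.11.9, STAR 2.7.5a, featureCounts 2.0.1, DESeq2 1.42.1 and the build mm10 are named in the submitters' processing notes. Annotation, strand setting and handling of multi-mapping reads: not given in the sources used here. Reads shared by overlapping genes or near copies can therefore move a count. The table held 0 columns from outside the series.

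Groups were taken from the labels. Low genes were removed with filterByExpr, at a count of at least 10 and a total of at least 15. Libraries were scaled by the trimmed mean of M-values, and genes tested with edgeR 4.0.16 (robust quasi-likelihood, GF over CONV-R, R 4.3.3), with Benjamini-Hochberg adjustment over 13915 genes and a threshold of 0.05. The SE is the log2 fold change divided by the root of F. The biological coefficient of variation was 0.264. The procedure was tested on simulated data. Alternatives used DESeq2 1.42.0, limma 3.58.1, other scalings, filters and thresholds, code numbers, marker sums as covariates, and libraries left out. All 33 genes are reported. Of the 132 other genes, up to 3 called per list and direction with the smallest p are given, and the other called genes (Ctsk, Tpcn1, Map1lc3b, Uvrag and Atg9a) were added to complete the lists after their values were seen. The genes and lists were chosen with earlier results of these data known. The marker genes Ly6g and Trac were not analysed here. Levels per kilobase used the exon union of GENCODE M21, and promoters came from RefSeq on GRCm38.p6.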

Additional observations from a re-analysis of the deposited data

Results flagged for a closer look

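In 3 of the 66 sets formed by 33 genes and 2 groups, 1 library stood far from the rest of its group, where chance gives about 1 in 20. Tpp1 was low in CONV-R 1, at 289 CPM, with the other CONV-R libraries at 355 to 403 CPM. Cd63, whose count is uncertain because of its near copy, was high in GF 11, at 17.8 CPM, with the other GF libraries at 9.63 to 12.3 CPM. In GF 11 stellate and fibroblast markers summed to 610 CPM of the library total, against 54.2 to 102 CPM in the other GF libraries. The part of this in the Cd63 value was not tested. Tfeb was high in CONV-R 1, at 31.8 CPM, with the other CONV-R libraries at 14.7 to 17.8 CPM. CONV-R 1 also had the lowest endothelial and the highest B and plasma cell marker sums, and the part of these in the values of Tpp1 and Tfeb was not tested.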

How the results depend on the processing

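No paired analysis was possible because the replicate numbers of the groups, 8 to 13 in GF and 1 to 7 in CONV-R, are not shared. Over 26 alternatives, Man2b1 and Lipa passed in all 26, Ids in 22, Cln3 in 14, Ctsz in 13 and Ctsc in 8. Of the genes not called in the main fit, Ctsh and Acp2 passed most often, in 7 each, and Ctsd in 4. With limma the 2 lower genes were Ctsd and Ctsz, with 25.5% of all tested genes called. The number of the 33 genes higher in GF was 3 in every fit that left out 1 library, and moved by over 1.5 times in 1 alternative, to 5 against CONV-R libraries with code number 9. The number lower was 5 with DESeq2, 7 with library totals, 1 without a filter, 5 with a strict filter, 0 at a threshold of 0.01, 1 against code number 10, 8 against code number 9, 0 with either marker sum as a covariate, 0 without CONV-R 1, 5 and 6, and 0 to 6 leaving out 1 library. Of all genes, 29.5% were called in either direction with DESeq2, 26.9% with library totals, 15.5% without a filter and 24.7% with a strict filter. The share was 8.68% at a threshold of 0.01, 13.9% against code number 10 and 34% against code number 9. It was 9.54% with the Kupffer sum, 3.66% with the hepatocyte sum and 16.6% without CONV-R 1, 5 and 6. Leaving out 1 library gave 15.7% to 27%. The log2 fold change of Ctsc turned to 0.034 with the hepatocyte sum as a covariate, and the cause was not tested. The median was -0.085 with library totals and -0.03 to 0.02 leaving out 1 library. Of the other lysosomal and autophagy genes, those higher numbered 10 with library totals, 6 at a threshold of 0.01, 7 against code number 10, 8 with the Kupffer sum, 1 with the hepatocyte sum and 9 (without GF 9) to 23 leaving out 1 library. Those lower numbered 9 with DESeq2, 14 with library totals, 1 at a threshold of 0.01, 1 against code number 10, 12 against code number 9, 3 with the Kupffer sum, 2 with the hepatocyte sum, 2 without CONV-R 1, 5 and 6, and 2 to 8 leaving out 1 library. Leaving out CONV-R 1, 5 and 6, or 1 and 7, was chosen after seeing the data. Each of the 33 genes had 65 counts or more in every library. The part of depth in the spread among CONV-R libraries was not tested.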
